A study of Homo sapiens with 16 samples.

Results

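The tubulin isotype genes expressed in bladder cancer cells were examined in 4 human urothelial carcinoma cell lines, 253J, J82, RT112 and TCCSUP. The members were the rows of the gene count table with the symbols TUBA1A, TUBA1B, TUBA1C and TUBA4A (alpha-tubulins) and TUBB, TUBB2A, TUBB2B, TUBB3, TUBB4B and TUBB6 (beta-tubulins), which made 10 of 35993 genes. Each line was grown for 48 h either with the vehicle DMSO at 0.01% (control) or with CM-1758, a histone deacetylase inhibitor, at the IC50 of that line, and gave 2 control and 2 treated RNA-seq libraries (n = 2 per group, 16 libraries). The dose therefore differed between lines, and a response of a line cannot be told apart from its dose. Each line is 1 established tumour culture. The libraries of a group came from independent experiments by the study's own account, and p-values measure the spread between these libraries.

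Microtubules are hollow polymers of dimers of alpha- and beta-tubulin, and they form the mitotic spindle, the tracks of motor proteins and the core of cilia. Vertebrates make each subunit from several genes, called isotypes, whose products are nearly identical except at the C-terminal tail, the acidic end that faces outward and carries most of the enzymatic modifications. TUBA1B, TUBA1C, TUBB and TUBB4B are the isotypes of most dividing cells, TUBA1A, TUBB2A and TUBB2B are abundant in the developing brain, TUBB3 is a classic neuronal marker that is also made by many carcinomas, and TUBB6 is a more divergent beta-tubulin. Cells also hold tubulin mRNA in check by autoregulation: excess free tubulin leads to decay of tubulin mRNAs on ribosomes, through recognition of the first residues of the nascent chain by TTC5.

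The first 30 coding bases of each member are shown because they encode the residues read in autoregulation, with the first 4 codons in capitals (principal transcripts of GENCODE v29, 5′ to 3′).
TUBA1A coding start: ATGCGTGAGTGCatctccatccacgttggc
TUBA1B coding start: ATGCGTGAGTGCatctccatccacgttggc
TUBA1C coding start: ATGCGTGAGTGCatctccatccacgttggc
TUBA4A coding start: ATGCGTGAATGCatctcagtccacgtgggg
TUBB coding start: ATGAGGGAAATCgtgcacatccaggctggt
TUBB2A coding start: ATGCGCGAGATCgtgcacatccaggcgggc
TUBB2B coding start: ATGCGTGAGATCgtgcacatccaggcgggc
TUBB3 coding start: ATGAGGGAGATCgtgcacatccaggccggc
TUBB4B coding start: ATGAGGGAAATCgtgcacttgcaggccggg
TUBB6 coding start: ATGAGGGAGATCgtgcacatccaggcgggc
The 4 codons fell into 6 different runs of 12 bases. TUBA1A, TUBA1B and TUBA1C shared 1 run, TUBB and TUBB4B another, and TUBB3 and TUBB6 another. Within the alphas and within the betas, the runs differ only in synonymous codons. Every alpha start encodes Met-Arg-Glu-Cys and every beta start Met-Arg-Glu-Ile. The part of autoregulation in the changes under CM-1758 was not tested.

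The last 60 coding bases of the 6 beta members are shown because the C-terminal tail is where isotypes differ, with the codon before the stop codon in capitals.
TUBB coding end: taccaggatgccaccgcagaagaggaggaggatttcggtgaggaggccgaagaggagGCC
TUBB2A coding end: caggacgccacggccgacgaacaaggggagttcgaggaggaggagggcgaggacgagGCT
TUBB2B coding end: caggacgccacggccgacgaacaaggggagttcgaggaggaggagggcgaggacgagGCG
TUBB3 coding end: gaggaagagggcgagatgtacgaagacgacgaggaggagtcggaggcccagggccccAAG
TUBB4B coding end: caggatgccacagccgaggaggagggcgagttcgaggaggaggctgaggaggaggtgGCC
TUBB6 coding end: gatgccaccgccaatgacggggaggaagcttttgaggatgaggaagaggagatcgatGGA
TUBB2A and TUBB2B differed only in the last base. TUBB3 was the only beta member to end in AAG, a lysine codon.

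Over whole coding sequences, the 6 alpha pairs shared 84.4% to 97.2% of aligned bases, the 15 beta pairs 80.9% to 98.2%, and the 24 pairs of an alpha with a beta 52.2% to 53.8%. TUBB2A and TUBB2B were the closest pair, with 98.2%. Of all windows of 100 bases in the principal transcript, 56.4% of TUBB2A, 46.2% of TUBB2B, 37.2% of TUBA1B, 18.3% of TUBA1A and 11.5% of TUBA1C also lay in the transcript of another gene. For TUBB3 the share was 89.0%, through an overlapping gene model (AC092143.1), and 5.15% with other members. TUBB6 had no shared window (0%). How reads that fit several of these genes were assigned is not given in the sources used here, so the counts of TUBA1A, TUBA1B and TUBA1C, and those of TUBB2A and TUBB2B, are uncertain to the extent that such reads were split between them. The TUBB3 counts are uncertain in the same way through AC092143.1, and the summed counts given below do not cover that overlap.

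The 250 bases upstream of the RefSeq start are shown for TUBA1B and TUBB3, the members with the largest mean fall and rise, with matches to CCAAT and GGGCGG on either strand in capitals (GRCh38.p14; TUBA1B chr12:49131396-49131645, minus strand; TUBB3 chr16:89923092-89923341, plus strand).
TUBA1B upstream: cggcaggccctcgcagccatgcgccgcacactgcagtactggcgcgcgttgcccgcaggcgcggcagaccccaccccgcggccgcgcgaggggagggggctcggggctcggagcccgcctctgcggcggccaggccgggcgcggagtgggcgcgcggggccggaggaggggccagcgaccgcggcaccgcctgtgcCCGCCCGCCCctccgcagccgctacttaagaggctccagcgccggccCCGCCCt
TUBB3 upstream: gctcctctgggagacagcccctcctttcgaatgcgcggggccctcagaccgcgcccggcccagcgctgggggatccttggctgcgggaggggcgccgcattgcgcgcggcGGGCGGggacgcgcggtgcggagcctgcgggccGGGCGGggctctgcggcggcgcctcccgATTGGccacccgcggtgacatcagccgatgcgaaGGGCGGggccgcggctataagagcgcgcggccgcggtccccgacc
TUBA1B held 3 matches to GGGCGG, 2 of which overlap, and 0 to CCAAT, and TUBB3 held 3 and 1. Over the 10 members, 8 held GGGCGG and 7 held CCAAT, against 42.6% and 32% of 35116 promoters of the same length. TATAAA occurred in 1 member (TUBB2A) against 10.7% of promoters, and TTTGAA, the core of a cell-cycle promoter element, in 2 members (TUBA1C and TUBB4B) against 13.3%. Both CCAAT and GGGCGG occurred in members that fell in all 4 lines (TUBA1C, TUBB) and in the member that rose in all 4 (TUBB3). These are letter matches in 1 window per gene.

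The libraries held 22506431 to 32537104 counts each, and all 10 members passed the filter on low counts with 21297 genes. Members took 0.166% to 0.609% of a library. Levels are given as CPM, the count of a gene scaled to the size of its library with TMM factors. The 2 libraries of a group differed by more than sampling noise in every group (chi-square per degree of freedom 12.6 to 79.4), most in the J82 controls. KRT8 and KRT18, keratins of simple and urothelial epithelium, were present in every library, whereas the uroplakin gene UPK1B reached 1408 ± 155 CPM (SD, n = 2) in RT112 controls and at most 1.35 CPM on average in controls of the other lines. The transcripts of 24 tubulin pseudogenes summed to 0.0996% to 0.719% of the members' counts.

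In untreated cells, TUBA1B was the leading alpha-tubulin transcript and TUBB the leading beta-tubulin transcript in every line. Per kilobase of transcript, TUBA1B stood at 1280.4 ± 360.02 CPM in J82, 1114 ± 256 in 253J, 936 ± 118 in TCCSUP and 588 ± 13.6 in RT112 (SD, n = 2 each). TUBA4A, an alpha-tubulin prominent in platelets and muscle, stood between 21.3 and 39.9 CPM per kilobase. Second to TUBB among the beta-tubulins was TUBB4B, the isotype of cilia and most tissues, at 185 to 450.2 CPM per kilobase. In 253J the levels of TUBB (317 ± 39.3) and TUBB4B (266 ± 53.6) overlapped within their SDs.

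The control level differed between lines for all 10 members (F test in edgeR, adjusted p between 1.97e-11 and 0.00602), as it did for 78.8% of the genes tested. Line by line, 10 members differed between J82 and RT112 (52.1% of genes tested), 8 between 253J and J82 (53.1%), 7 between 253J and TCCSUP (53.1%), 7 between J82 and TCCSUP (48%), 7 between RT112 and TCCSUP (51.5%) and 5 between 253J and RT112 (54.3%). RT112 had the lowest mean level of 8 members (TUBA1A, TUBA1B, TUBA1C, TUBB, TUBB2B, TUBB3, TUBB4B and TUBB6).

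TUBB6 spread most, from 156 and 119.98 CPM in the 253J controls to 1.18 and 0.576 CPM (36 and 17 counts) in the RT112 controls, a ratio of means of 158. All 4 lines were apart for TUBB6 (pairwise adjusted p at most 6.02e-04). TUBA1A was also apart in all 4 lines, in the order TCCSUP, 253J, J82 and RT112 (10.8 times from highest to lowest). TUBB3 fell into a high pair, TCCSUP and J82 (difference not passing, adjusted p = 0.150), and a low pair, 253J and RT112 (adjusted p = 0.0639), and the highest and lowest means differed by 6.83 times. TUBB2B had the same high and low pairs (adjusted p = 0.124 within the high pair and 0.228 within the low pair). TUBB2A was high in J82, then in TCCSUP (adjusted p of their difference 0.00632), and low in RT112 and 253J, which did not pass against each other (adjusted p = 0.925). TUBA1B, in contrast, was spread over 2.18 times, and J82, 253J and TCCSUP did not pass against their neighbours (adjusted p = 0.535 and 0.421).

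**Figure D1:**
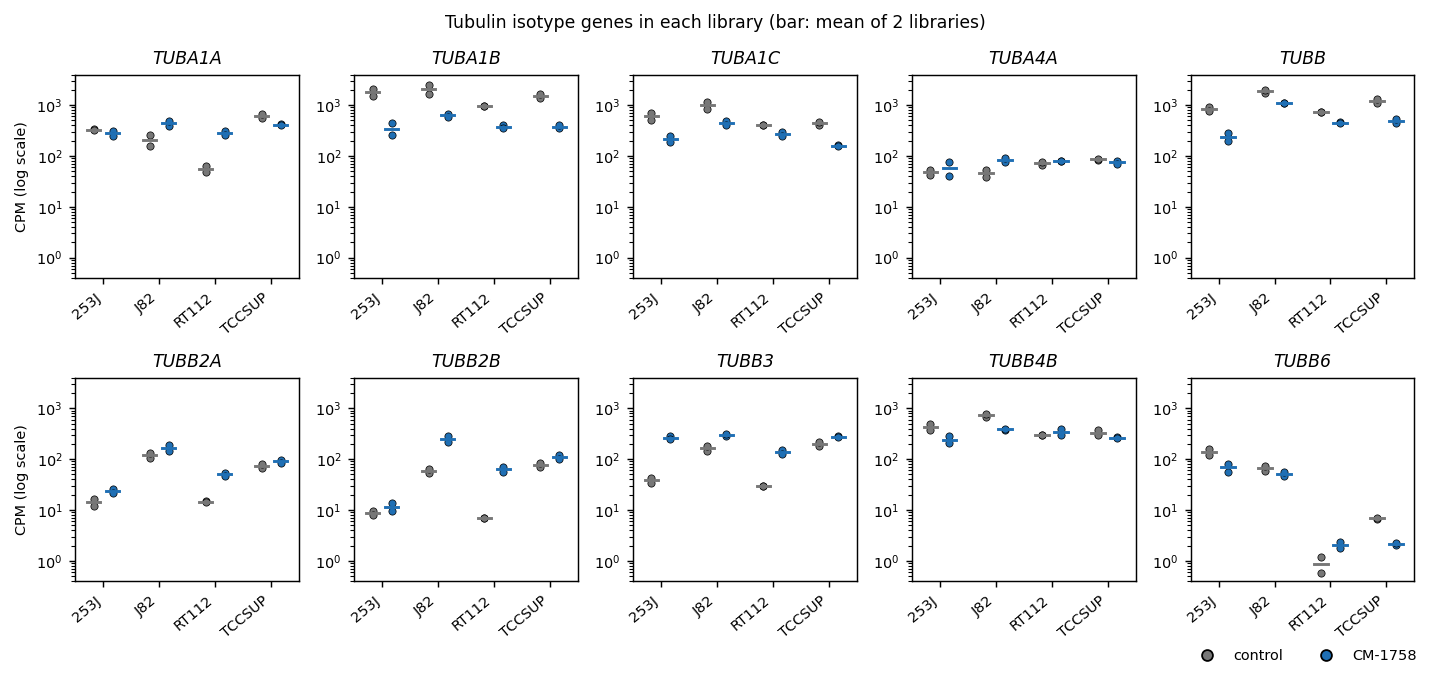
CPM of each member (log scale) in each library of the 4 lines, control in grey and CM-1758 in blue, with a bar at the mean of 2 libraries. TUBA1B and TUBB treated points lie under the control points in every line, and TUBB3 treated points lie above them.

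To find which isotypes responded to CM-1758, treated and control libraries were compared in each line with edgeR's quasi-likelihood test (Benjamini-Hochberg adjustment over 21297 genes). In 253J 2 members rose, 5 fell and 3 did not pass, where 28.8% of all genes tested rose and 22.4% fell (51.3% passed). In J82 5 rose, 4 fell and 1 did not pass, where 24% of genes rose and 18.5% fell (42.5%). In RT112 5 rose, 3 fell and 2 did not pass, where 27.4% rose and 20.2% fell (47.7%). In TCCSUP 2 rose, 5 fell and 3 did not pass, where 32% rose and 22.1% fell (54.1%). The median log2 fold change of the members was -0.55 in 253J, -0.44 in TCCSUP, 0.07 in J82 and 0.71 in RT112, beside 0.10, 0.20, 0.05 and 0.12 over all genes tested. TUBA1B, TUBA1C and TUBB fell in all 4 lines (6.01% of genes tested fell in all 4), and TUBB3 rose in all 4 (6.69%). At the stricter threshold of the study (log2 fold change beyond 2 and adjusted p under 0.01), the higher members were TUBB3 in 253J (9.43% of genes tested), TUBB2B in J82 (8.81%) and TUBA1A, TUBB2B and TUBB3 in RT112 (11.4%), and the lower member was TUBA1B in 253J (3.5%) and in TCCSUP (3.31%). In TCCSUP TUBA1B only just reached that fold (-2.00 on the log2 scale), and it missed it with RLE factors and in DESeq2 (-1.96 in each), with total counts alone (-1.69), with at least 10 counts in every library (-1.85), and without control replicate 2 (-1.87) or CM-1758 replicate 1 (-1.94) of TCCSUP. TUBB2B in J82 missed it without J82 control replicate 1 (1.96) or J82 CM-1758 replicate 3 (1.86). No member was that much lower in J82 (1.24% of genes tested) or RT112 (1.39%), or that much higher in TCCSUP (14.2%).

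TUBA1B, the main alpha-tubulin of dividing cells, fell in every line. In 253J it went from 2107 and 1518 CPM to 438 and 253 CPM. In J82 it went from 1669 and 2497 CPM to 679 and 586 CPM. In RT112 it went from 972 and 941 CPM to 401 and 358 CPM, and in TCCSUP from 1386 and 1658 CPM to 359 and 399.6 CPM. Every treated library was under every control library of its line. With 2 libraries per group such separation, here and for the members below, is easily met. The share of all genes that met it was not counted. On the log2 scale the change was -2.39 ± 0.26 in 253J, -2.00 ± 0.25 in TCCSUP, -1.72 ± 0.25 in J82 and -1.33 ± 0.25 in RT112 (SE, n = 2 against 2, adjusted p = 2.41e-06, 1.23e-05, 7.29e-05 and 4.97e-04). The interaction test did not pass for TUBA1B (adjusted p = 0.0857).

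TUBA1C, a close relative of TUBA1B, fell by 1.46 on the log2 scale in TCCSUP, by 1.45 in 253J, by 1.17 in J82 and by 0.58 in RT112 (adjusted p = 3.21e-05, 3.12e-05, 3.12e-04 and 0.0282). Control and treated libraries did not overlap in any line. The RT112 call was the weakest. It was lost without RT112 control replicate 1 (adjusted p = 0.0920), without RT112 control replicate 2 (0.0901) and without RT112 CM-1758 replicate 2 (0.188), and also with RLE size factors (0.0522), with total counts alone (0.0838) and with at least 10 counts in every library (0.0616).

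TUBA1A, the alpha-tubulin of migrating neurons, went in different directions. In RT112 it rose from 64.7 and 48.0 CPM to 304 and 262 CPM, and in J82 from 157 and 264 CPM to 384 and 489 CPM. In TCCSUP it went from 555 and 665 CPM to 428 and 402 CPM, and in 253J from 341 and 319 CPM to 307 and 247 CPM. The groups did not overlap in any line, including 253J, where the change did not pass. The direction was up in the lines with the lower control level. The log2 fold change was 2.33 ± 0.24 in RT112 and 1.05 ± 0.23 in J82 (adjusted p = 2.10e-06 and 0.00159), -0.55 ± 0.22 in TCCSUP (0.0478) and -0.25 ± 0.22 in 253J (0.368). The responses differed between lines (interaction adjusted p = 1.32e-05). The TCCSUP call was lost when any 1 of the 4 TCCSUP libraries was left out (adjusted p = 0.0574 without control replicate 1, 0.236 without control replicate 2, 0.110 without CM-1758 replicate 1 and 0.175 without CM-1758 replicate 2). It was also lost in DESeq2 (0.0556), with RLE factors (0.0661), with at least 10 counts in every library (log2 fold change -0.40, adjusted p = 0.119) and with total counts alone (-0.24, 0.341).

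TUBA4A rose in J82, from 38.8 and 53.4 CPM to 77.8 and 90.2 CPM (log2 fold change 0.87 ± 0.24, adjusted p = 0.00905), and that call was lost without J82 control replicate 1 (0.0822) or without J82 CM-1758 replicate 3 (0.0579). In the other lines it did not pass, and its 95% intervals were -0.22 to 0.80 in 253J, -0.37 to 0.65 in RT112 and -0.72 to 0.30 in TCCSUP on the log2 scale. In 253J the 2 treated libraries stood at 77.8 and 39.8 CPM, on either side of the controls at 53.9 and 42.3 CPM. Without 253J CM-1758 replicate 3 the log2 fold change in 253J was 0.69 (adjusted p = 0.0138), and without replicate 1 it was -0.27 (0.325). The interaction test did not pass for TUBA4A (adjusted p = 0.0747).

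TUBB, the main beta-tubulin of dividing cells, fell in every line. In 253J it went from 919.6 and 771 CPM to 279 and 201 CPM. In J82 it went from 1772 and 1985 CPM to 1092 and 1097 CPM. In RT112 it went from 727 and 732 CPM to 462 and 438 CPM, and in TCCSUP from 1088 and 1306 CPM to 437 and 523 CPM. No treated library reached a control library of its line. The change on the log2 scale was -1.82 ± 0.18 in 253J, -1.32 ± 0.18 in TCCSUP, -0.78 ± 0.17 in J82 and -0.70 ± 0.17 in RT112 (adjusted p = 1.00e-06, 1.91e-05, 0.00209 and 0.00405). The fall in 253J exceeded that in J82 by 1.04 (95% interval 0.52 to 1.56; adjusted p = 0.00470) and that in RT112 by 1.12 (0.60 to 1.64; adjusted p = 0.00286) on the log2 scale. With J82 fitted alone, the TUBB call there was lost (adjusted p = 0.0533).

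TUBB4B, the other general beta-tubulin, fell in 253J and J82 and did not pass in the other lines. It changed on the log2 scale by -0.84 ± 0.19 in 253J and -0.92 ± 0.19 in J82 (adjusted p = 0.00150 and 0.00108), -0.33 ± 0.19 in TCCSUP (0.152) and 0.18 ± 0.19 in RT112 (0.467). In RT112 the treated libraries stood at 383 and 302 CPM and the controls at 305 and 302 CPM. The responses differed between lines (interaction adjusted p = 0.00812). With TCCSUP fitted alone, TUBB4B passed there (-0.34, adjusted p = 0.0362).

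TUBB3, the neuronal beta-tubulin, rose in every line. In 253J it went from 42.2 and 34.1 CPM to 282 and 251 CPM. In RT112 it went from 29.2 and 29.6 CPM to 151 and 126 CPM. In J82 it went from 144 and 184 CPM to 285 and 318 CPM, and in TCCSUP from 185 and 217 CPM to 285 and 272 CPM. All treated libraries were above the controls of their line, and the treated means of 253J, J82 and TCCSUP lay between 267 and 302 CPM whereas their control means lay between 38.2 and 201 CPM. The log2 fold change was 2.80 ± 0.17 in 253J and 2.24 ± 0.17 in RT112 (adjusted p = 2.36e-08 and 1.29e-07), and 0.88 ± 0.16 in J82 and 0.47 ± 0.16 in TCCSUP (4.52e-04 and 0.0206).

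The responses of TUBB3 differed between lines (interaction adjusted p = 2.71e-06). The rise in 253J exceeded that in TCCSUP by 2.33 (95% interval 1.84 to 2.82, adjusted p = 3.42e-06) and that in J82 by 1.92 (1.44 to 2.41, adjusted p = 1.97e-05) on the log2 scale. Between 253J and RT112 the difference was 0.57 (0.08 to 1.05, adjusted p = 0.0748), and between J82 and TCCSUP it was 0.41 (-0.07 to 0.89, adjusted p = 0.230). The TCCSUP call was lost without TCCSUP control replicate 1 (adjusted p = 0.172), without TCCSUP CM-1758 replicate 1 (0.0983) and without TCCSUP CM-1758 replicate 2 (0.0550).

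TUBB2B, a beta-tubulin of the developing cortex, rose most in RT112, from 6.83 and 7.05 CPM to 70.8 and 56.3 CPM. In J82 it rose from 53.3 and 64.6 CPM to 213 and 290.3 CPM. In TCCSUP it went from 71.3 and 82.3 CPM to 121 and 101 CPM, and in 253J from 9.56 and 7.81 CPM to 13.6 and 9.65 CPM. The groups were wide apart in RT112 and J82 and nearly touched in 253J. Its log2 fold change was 3.19 ± 0.22 in RT112 and 2.09 ± 0.20 in J82 (adjusted p = 5.53e-08 and 1.53e-06), 0.53 ± 0.19 in TCCSUP (0.0312) and 0.42 ± 0.21 in 253J (0.119). The TCCSUP call was lost without control replicate 1 (adjusted p = 0.186), control replicate 2 (0.0578) or CM-1758 replicate 1 (0.215) of TCCSUP. In 253J the call was gained without CM-1758 replicate 3 (0.0453), with total counts alone (0.0100) and with at least 10 counts in every library (0.0426).

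TUBB2A, the near-identical neighbour of TUBB2B on chromosome 6, moved in the same direction. Its log2 fold change was 1.78 ± 0.19 in RT112, 0.75 ± 0.19 in 253J and 0.51 ± 0.18 in J82 (adjusted p = 3.64e-06, 0.00375 and 0.0316), and 0.29 ± 0.18 in TCCSUP (0.184). In RT112 the libraries went from 15.1 and 14.3 CPM to 54.3 and 46.4 CPM. No treated library of any line overlapped its controls, including TCCSUP, where the change did not pass. The J82 call was lost without J82 control replicate 1 (0.181), without J82 CM-1758 replicate 3 (0.286) and with J82 fitted alone (0.109), and the 253J call without 253J control replicate 3 (0.0637). With total counts alone TUBB2A passed in TCCSUP (0.00713), and with at least 10 counts in every library it passed there too (0.0348).

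TUBB6, the divergent beta-tubulin, fell in TCCSUP and 253J and rose in RT112, where it was close to undetected. In TCCSUP it went from 6.61 and 7.01 CPM to 2.02 and 2.20 CPM (log2 fold change -1.69 ± 0.27, adjusted p = 1.11e-04), and in 253J from 156 and 119.98 CPM to 80.1 and 57.03 CPM (-1.01 ± 0.21, adjusted p = 9.64e-04). In J82 the change was -0.37 ± 0.21 (0.180). In RT112 it went from 1.18 and 0.576 CPM to 2.39 and 1.79 CPM (1.24 ± 0.34, adjusted p = 0.00747), a call that rests on 17 and 36 control counts. That call was lost without RT112 control replicate 2 (adjusted p = 0.0940) or without RT112 CM-1758 replicate 1 (0.0696).

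**Figure D2:**
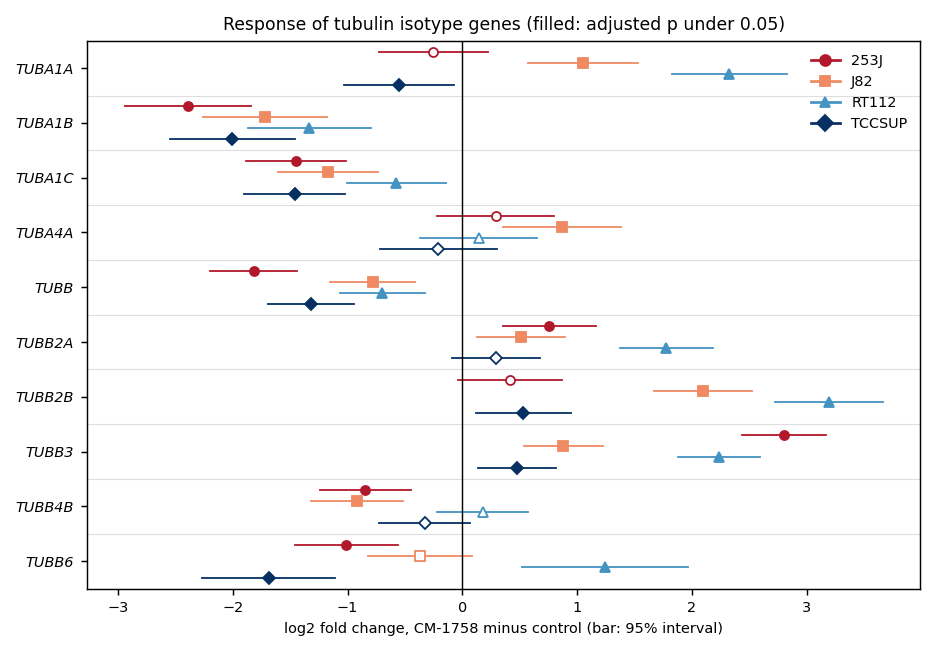
log2 fold change of each member, CM-1758 minus control, in 253J, J82, RT112 and TCCSUP (bars: 95% intervals; filled symbols: adjusted p under 0.05). TUBA1B lies between -2.39 and -1.33, and TUBB3 between 0.47 and 2.80, with the 2 largest TUBB3 values in 253J and RT112.

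Across the family, the responses of 8 members differed between lines in the interaction test, against 51.9% of genes tested. The number of members that differed was 8 between 253J and RT112 (30% of genes tested), 6 between J82 and RT112 (22.2%), 6 between RT112 and TCCSUP (27.5%), 4 between 253J and J82 (30%), 4 between J82 and TCCSUP (22.2%) and 1 between 253J and TCCSUP (28.6%). The 1 member that differed between 253J and TCCSUP was TUBB3. TUBA1A, TUBB2A and TUBB2B each had their largest rise in RT112. Over the 16 libraries TUBB2A and TUBB2B had a Pearson correlation of 0.96 on the log2 CPM scale, and TUBA1B and TUBA1C one of 0.90. Both pairs share long identical runs, and the libraries share lines and treatment, so these are descriptions.

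To allow for reads split between near-identical genes, the counts of TUBA1A, TUBA1B and TUBA1C were summed, as were those of TUBB2A and TUBB2B. The summed TUBA1 genes fell in every line, with log2 fold changes of -1.70 in 253J, -1.43 in TCCSUP, -1.12 in J82 and -0.60 in RT112 (adjusted p = 1.33e-05, 6.89e-05, 7.37e-04 and 0.0313). The summed TUBB2 genes rose by 0.64 in 253J, 1.25 in J82 and 2.40 in RT112 (adjusted p = 0.0127, 1.02e-04 and 3.50e-07), and changed by 0.42 in TCCSUP (0.0721).

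Summed over the 4 alpha members, the treated mean was 32.3% of the control mean in 253J, 38.7% in TCCSUP, 47.8% in J82 and 68.0% in RT112. The sums of the 2 libraries were 2389.6 and 3193 CPM in 253J controls and 728 and 1073 CPM in treated 253J. Summed over the 6 beta members, the treated mean was 57.6% of control in 253J, 65.0% in TCCSUP, 74.7% in J82 and 96.5% in RT112. In RT112 the beta sums of treated libraries, 971 and 1123 CPM, lay on either side of the control sums, 1084 and 1085 CPM. In bulk RNA, fewer cells of a kind and less RNA per cell cannot be told apart.

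The make-up of both pools shifted. Per kilobase, TUBA1B made 64.9% to 74.9% of the alpha pool in controls and 43.3% to 48.3% after CM-1758. TUBA1A made 11.6% ± 1.86 (SD, n = 2) of it in 253J controls and 32.2% ± 4.29 after treatment, 6.22% ± 0.538 and 28.4% ± 5.45 in J82, 3.74% ± 0.705 and 29.1% ± 0.404 in RT112, and 22.1% ± 0.169 and 40.3% ± 2.13 in TCCSUP. The share of TUBA1A was thus higher after treatment also in 253J and TCCSUP, where its own level was not. TUBA4A held 1.23% to 4.24% of the alpha pool in controls and 4.84% to 7.26% after treatment.

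TUBB made 46.4% to 55.9% of the beta pool in controls and 20.2% to 38.3% after CM-1758. TUBB3 made 3.16% ± 0.0411 of it in 253J controls and 34.3% ± 3.06 after treatment, and there it was the largest beta isotype beside TUBB4B (33.4% ± 1.44), with overlapping SDs. In the other lines TUBB3 went from 6.68% ± 0.513 to 15.9% ± 0.170 in J82, from 3.40% ± 0.0372 to 15.05% ± 0.147 in RT112, and from 13.3% ± 0.255 to 25.7% ± 0.774 in TCCSUP. TUBB2A and TUBB2B reached 9.81% ± 1.23 and 11.6% ± 1.73 of the beta pool in treated J82. The share of TUBB4B moved little in RT112 (38.0% ± 0.204 and 40.1% ± 2.13). These shares use 1 transcript length per gene and carry no test, and without scaling by length TUBA1B made 57.2% to 64.8% of the alpha pool in controls and 36.8% to 39.6% after treatment.

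**Figure D3:**
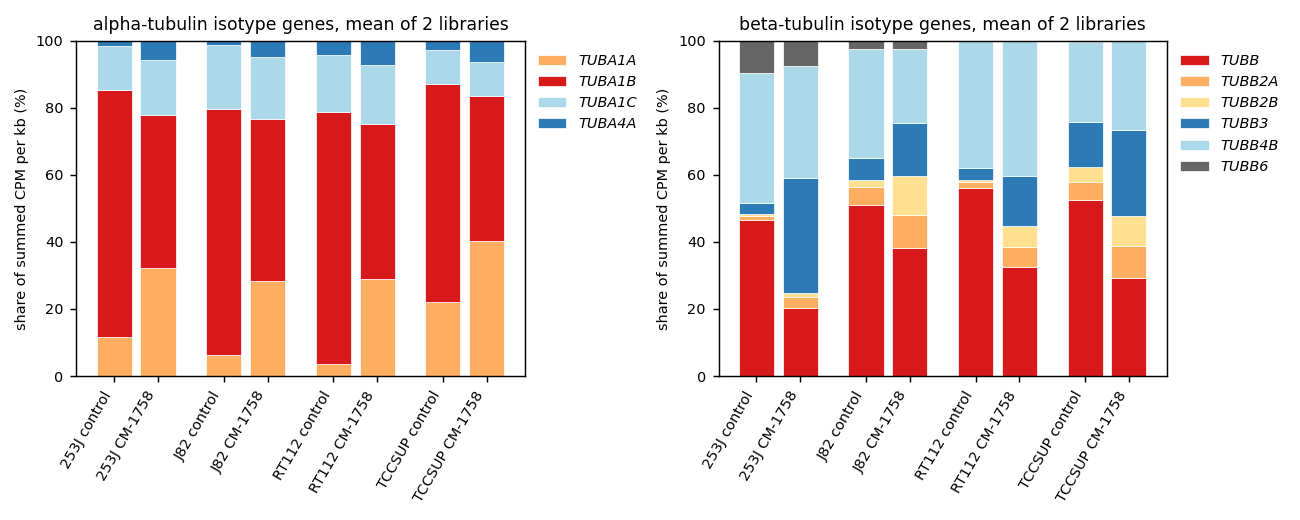
Share of each isotype gene in the summed CPM per kilobase of the 4 alpha (left) and 6 beta (right) members, in percent, as the mean of 2 libraries per group. The TUBA1B share drops from 64.9% to 74.9% in controls to 43.3% to 48.3% after CM-1758, and the TUBB3 share in 253J goes from 3.16% to 34.3%.

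Of 12 other tubulin genes, mostly tissue-restricted isotypes and the gamma-, delta- and epsilon-tubulins, 11 were tested. In 253J 4 rose and 1 fell, in J82 and in RT112 5 rose, and in TCCSUP 5 rose and 1 fell. The rising share was 36.4% in 253J and 45.5% in J82, RT112 and TCCSUP. Over all genes tested it was 28.8%, 24%, 27.4% and 32% in 253J, J82, RT112 and TCCSUP. The falling share was at most 9.09%, beside 18.5% to 22.4% of all genes. Of the 12 genes, 4, 7, 5 and 3 were at 3 counts or fewer in the controls of 253J, J82, RT112 and TCCSUP. Such genes had almost no room to fall, so these shares are not on an equal footing with those of all genes. Some rises rest on few counts. TUBA3C in RT112 went from 0 counts to between 3 and 9, and TUBA3E in 253J from 0 to between 7 and 11. TUBB4A, the beta-tubulin of oligodendrocytes, rose in all 4 lines. It was at 0 counts in the control libraries of J82 and RT112 and reached 2.01 ± 0.399 CPM and 21.2 ± 2.89 CPM (SD, n = 2) after treatment, at least 18.0-fold and 212-fold higher when the controls are set to 3 counts per library. In 253J it went from 1.42 ± 0.162 to 4.88 ± 0.217 CPM (log2 fold change 1.78, adjusted p = 2.40e-04) and in TCCSUP from 0.833 ± 0.338 to 8.56 ± 0.194 CPM (3.35, adjusted p = 2.10e-06). TUBG1, the gamma-tubulin of the centrosome, did not pass in any line (95% intervals within -0.73 and 0.34 on the log2 scale), and passed in 253J without 253J CM-1758 replicate 1 (adjusted p = 0.0436).

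Tubulin is folded by the chaperonin TRiC with prefoldin and cofactors, and microtubules are nucleated by the gamma-tubulin ring complex. Of 23 folding chaperones and cofactors, 7 rose and 6 fell in 253J, 8 fell in J82, 3 rose and 10 fell in RT112, and 4 rose and 6 fell in TCCSUP (median log2 fold change -0.17, -0.26, -0.48 and -0.29). The falling share, 26.1%, 34.8%, 43.5% and 26.1% of the list, stood beside 22.4%, 18.5%, 20.2% and 22.1% of all genes tested, and the rising share, 30.4%, 0%, 13% and 17.4%, beside 28.8%, 24%, 27.4% and 32%, so that the 253J counts are near those of all genes. CCT5, a TRiC subunit, fell by 0.96, 0.95, 1.12 and 0.80 on the log2 scale in 253J, J82, RT112 and TCCSUP, and PDCL3, a cofactor of that chaperonin, fell by 0.73, 1.97, 0.73 and 1.18. Of 12 genes of the gamma-tubulin ring complex, 5, 7, 4 and 6 fell in the same order, and 2 rose in 253J, 1 in RT112 and 1 in TCCSUP (medians -0.40, -0.61, -0.29 and -0.35). The falling share of that complex was 33.3% to 58.3%. MZT2A and MZT2B, small subunits of that complex, fell in all 4 lines, with log2 fold changes from -2.92 to -1.83 and from -2.16 to -1.40. The PDCL3 call in 253J was lost without 253J control replicate 2 (adjusted p = 0.0756) and with total counts alone (0.0599), and that in RT112 without RT112 control replicate 2 (0.0543).

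Of 22 tubulin modifying enzymes tested, 11 rose and 2 fell in 253J, 8 rose and 5 fell in J82, 7 rose and 2 fell in RT112, and 7 rose and 1 fell in TCCSUP. The rising share was 50% in 253J and 36.4% in J82 (28.8% and 24% of all genes tested), and at 31.8% in RT112 and in TCCSUP it was near that of all genes (27.4% and 32%). With genes at 3 counts or fewer set to their bounds, the median log2 fold change was 0.80, 0.41, 0.11 and 0.29. AGTPBP1, a deglutamylase, rose by 1.97, 1.50, 2.20 and 2.20 on the log2 scale in 253J, J82, RT112 and TCCSUP, and TTLL7, a polyglutamylase of beta-tubulin, by 1.64, 1.20, 2.91 and 1.44. VASH1, a vasohibin that removes the terminal tyrosine of alpha-tubulin, rose by 0.68, 2.31, 2.05 and 1.31. The VASH1 call in 253J was lost without 253J control replicate 2 (adjusted p = 0.264), CM-1758 replicate 1 (0.105) or CM-1758 replicate 3 (0.114).

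TTL, the ligase that restores that tyrosine, rose in 253J and RT112 (log2 fold change 1.10 and 0.79, adjusted p = 2.64e-05 and 5.90e-04) and fell in J82 and TCCSUP (-0.78 and -0.82, adjusted p = 7.47e-04 and 3.74e-04). HDAC6, the tubulin deacetylase, fell in J82 (-0.74, adjusted p = 2.08e-04) and RT112 (-0.52, 0.00269), and did not pass in 253J (0.10, 0.516) or TCCSUP (-0.25, 0.0967). With total counts alone HDAC6 passed in 253J as higher (0.37, adjusted p = 0.0228). SIRT2, another tubulin deacetylase, rose in 253J (0.86, adjusted p = 0.00467) and J82 (0.62, 0.0347), and did not pass in RT112 (-0.27, 0.341) or TCCSUP (-0.45, 0.116). The J82 call was lost without J82 control replicate 1 (0.100), J82 control replicate 3 (0.0938) or J82 CM-1758 replicate 3 (0.386) and with J82 fitted alone (0.0648), and with TCCSUP fitted alone SIRT2 passed there as lower (-0.46, 0.0478). ATAT1, the tubulin acetyltransferase, fell in J82 (-0.75, adjusted p = 0.0191), a call that was lost without J82 control replicate 1 (0.0926), CM-1758 replicate 1 (0.120) or CM-1758 replicate 3 (0.0677), with total counts alone (0.0535) and with J82 fitted alone (0.0758).

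Among 24 stabilizing and end-binding proteins, 10, 11, 13 and 11 rose and 8, 5, 2 and 7 fell in 253J, J82, RT112 and TCCSUP, a rising share of 41.7% to 54.2% beside 24% to 32% of all genes tested. The falling share was 33.3%, 20.8%, 8.33% and 29.2%, beside 22.4%, 18.5%, 20.2% and 22.1% of all genes. It too was above that of all genes in 253J, J82 and TCCSUP. MAPT, MAP1A and MAP2, which bind along neuronal microtubules, and CAMSAP3, which caps minus ends in epithelial cells, rose in all 4 lines. MAP1A rose by 3.11, 2.88, 4.20 and 0.82 and MAP2 by 1.95, 3.05, 4.28 and 1.29 on the log2 scale. MAPT rose by 2.38 in 253J, 1.69 in J82 and 4.96 in RT112, and was at least 59.0-fold higher in TCCSUP. CAMSAP3 rose by 1.80 in 253J, 4.40 in J82 and 1.79 in RT112, and was at least 50.9-fold higher in TCCSUP. MAP1B rose by 7.88 in RT112 and fell by 0.96 in TCCSUP, where the call was lost without TCCSUP CM-1758 replicate 1 (adjusted p = 0.0520).

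Of 16 destabilizing and severing proteins tested, 7, 6, 5 and 5 rose and 8, 4, 3 and 6 fell in 253J, J82, RT112 and TCCSUP. In RT112 both shares (31.2% and 18.8%) were near those of all genes tested (27.4% and 20.2%), as was the rising share in TCCSUP (31.2% beside 32%). In 253J 43.8% rose and 50% fell, beside 28.8% and 22.4% of all genes. In J82 37.5% rose and 25% fell, beside 24% and 18.5%. The falling share in TCCSUP was 37.5%, beside 22.1% of all genes. STMN1, which binds free tubulin dimers in dividing cells, fell by 1.08, 0.69, 0.62 and 1.45 on the log2 scale, in the same lines as TUBA1B and TUBB (adjusted p = 0.00123, 0.0241, 0.0389 and 1.17e-04). The STMN1 call in J82 was lost without any 1 of control replicate 3, CM-1758 replicate 1 and CM-1758 replicate 3 of J82 (adjusted p = 0.309, 0.111 and 0.0903), and that in RT112 without any 1 of control replicate 1, control replicate 2 and CM-1758 replicate 2 of RT112 (0.194, 0.0579 and 0.287). It was also lost in J82 with total counts alone (0.0622) and with that line fitted alone (0.0814), and in RT112 with RLE factors (0.0665), in DESeq2 (0.0573), with total counts alone (0.0966) and with at least 10 counts in every library (0.0705). STMN2, its neuronal relative, was at 0 to 2 counts in control libraries of every line and reached at least 39.6-fold, 42.2-fold, 2.71-fold and 30.6-fold higher levels in 253J, J82, RT112 and TCCSUP. In treated RT112 it had only 6 and 8 counts.

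In the list of tubulin mRNA autoregulation, TTC5, the factor that reads the residues encoded by the coding starts shown above, rose in all 4 lines. It went from 13.3 ± 0.132 to 42.2 ± 2.96 CPM in 253J (SD, n = 2), from 16.9 ± 2.68 to 27.5 ± 6.37 CPM in J82, from 16.9 ± 0.288 to 25.5 ± 2.24 CPM in RT112, and from 14.2 ± 2.26 to 28.7 ± 0.941 CPM in TCCSUP. The log2 fold changes were 1.67, 0.70, 0.59 and 1.02 (adjusted p = 2.14e-06, 0.00434, 0.0119 and 2.09e-04). The J82 call was lost without J82 CM-1758 replicate 3 (adjusted p = 0.0842) and with J82 fitted alone (0.0510), and the RT112 call without RT112 control replicate 1 (0.0709), control replicate 2 (0.0546) or CM-1758 replicate 1 (0.0872). Of the 9 genes of that list, which also holds SCAPER and subunits of the CCR4-NOT deadenylase, 3 rose and 2 fell in 253J, 2 rose in J82, 1 rose and 2 fell in RT112, and 1 rose and 1 fell in TCCSUP. In that order of lines the rising share was 33.3%, 22.2%, 11.1% and 11.1%, beside 28.8%, 24%, 27.4% and 32% of all genes tested. The falling share was 22.2%, 0%, 22.2% and 11.1%, beside 22.4%, 18.5%, 20.2% and 22.1%. Both shares in 253J were near those of all genes, and the rising share was lower in RT112 and TCCSUP.

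Markers of other cell types were counted beside the TUBB3 result. Over all genes tested, 28.8%, 24%, 27.4% and 32% rose and 22.4%, 18.5%, 20.2% and 22.1% fell in 253J, J82, RT112 and TCCSUP. Of 18 neuronal genes tested (TUBB3 not among them), 13, 12, 15 and 14 rose in the same order of lines, and 1 fell, in TCCSUP. This list shares genes with the lists above, MAP2 and STMN2 among them. The neuronal genes had a rising share of 72.2%, 66.7%, 83.3% and 77.8%. Of the 21 listed genes, 10, 12, 11 and 9 were at 3 counts or fewer in the controls of 253J, J82, RT112 and TCCSUP. Such genes had almost no room to fall, and some, such as STMN2, passed the low-count filter only through treated libraries. The shares are therefore not on an equal footing with those of all genes. With genes at 3 counts or fewer set to their bounds their median log2 fold change was 2.17, 3.11, 3.30 and 2.03. The summed level of the 21 listed genes in the table went from 124 to 126 CPM to 466 to 495 CPM in 253J, and from 34.6 to 37.01 CPM to 155 to 162 CPM in RT112. In J82 it went from 129 to 129.5 CPM to 372 to 445 CPM, and in TCCSUP from 485 to 529 CPM to 607 to 626 CPM. RBFOX3, a defining marker of mature neurons, was at 5 counts or fewer in 253J after treatment and at 7 or fewer in TCCSUP. Of 9 immune, endothelial and fibroblast markers tested, 5, 3, 4 and 2 rose and 1, 1, 0 and 3 fell in the same order of lines, with medians of 1.78, 0.74, 0.92 and -0.31 when genes at 3 counts or fewer are set to their bounds. The rising share of that list was 55.6%, 33.3%, 44.4% and 22.2%, and the falling share 11.1%, 11.1%, 0% and 33.3%. Of its 11 genes, 7, 7, 4 and 3 were at 3 counts or fewer in controls, so the same limit holds. PDGFRA, a receptor of fibroblasts, was at least 32.9-fold higher in J82, and CSF1R, a receptor of macrophages, at least 17.9-fold higher in 253J, where treated levels were 3.67 ± 0.588 and 2.00 ± 0.650 CPM (SD, n = 2). In TCCSUP COL1A1 went down from 988 ± 130 to 99.1 ± 1.71 CPM and PDGFRB from 92.9 ± 1.17 to 25.0 ± 0.0691 CPM. The summed level of the 11 genes of that list was 37.6 to 39.0 CPM in 253J controls and 49.8 to 61.8 CPM after treatment, 64.3 to 114 and 58.3 to 88.9 CPM in J82, 13.5 to 13.6 and 32.9 to 37.5 CPM in RT112, and 1028 to 1213 and 157 to 162 CPM in TCCSUP. CD3E, a defining marker of T cells, was at 0 counts in all control libraries, and at no more than 4 counts in treated 253J and 7 in treated TCCSUP. Other genes of that list were present in controls. PTPRC had 218 and 275 counts in TCCSUP controls, and CD68 had 678 and 1800 counts in J82 controls. Of 16 epithelial and urothelial markers, 4, 6, 2 and 5 rose and 4, 1, 5 and 6 fell. Their rising share was 25%, 37.5%, 12.5% and 31.2%, and their falling share 25%, 6.25%, 31.2% and 37.5%. KRT20, a keratin of umbrella cells, was at least 84.5-fold higher in 253J. Other genes of the list went down. UPK1B went from 1408 ± 155 to 352 ± 9.78 CPM in RT112, and KRT18 from 969 ± 98.2 to 163 ± 35.0 CPM in TCCSUP (SD, n = 2). The part of these genes in the TUBB3 result was not tested.

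**Figure D4:**
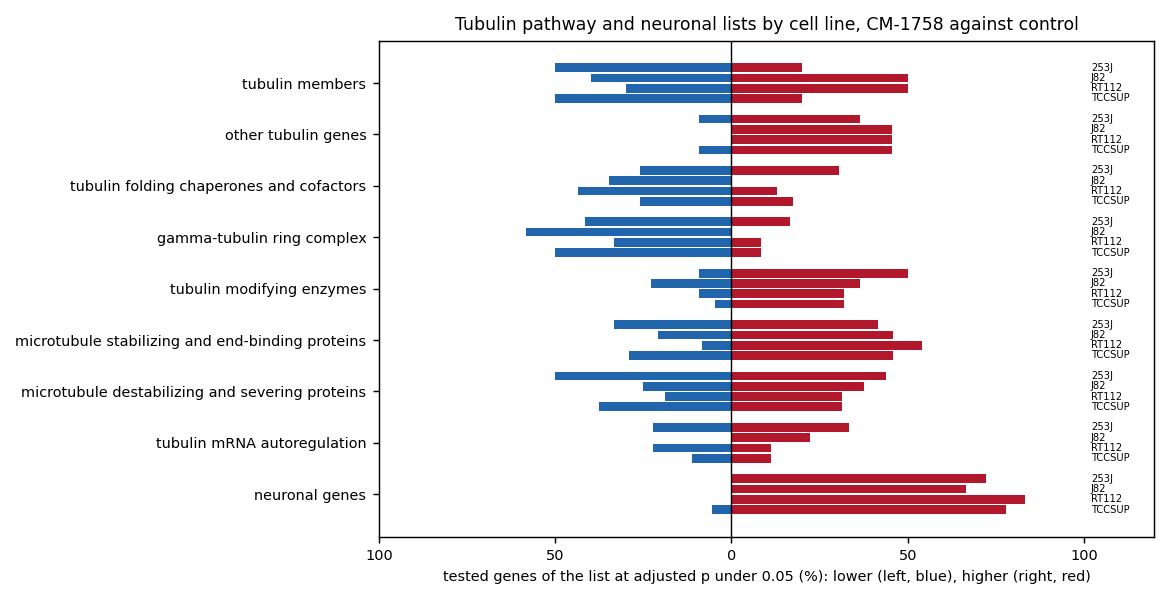
Percent of tested genes in each list with adjusted p under 0.05 that were lower (left, blue) or higher (right, red) after CM-1758, with 1 bar per line. In the neuronal list 13, 12, 15 and 14 of 18 genes rose in 253J, J82, RT112 and TCCSUP, and in the gamma-tubulin ring complex 5, 7, 4 and 6 of 12 fell. Some genes, such as MAP2 and STMN2, are in more than 1 list.

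Beyond these lists, the genes whose log2 CPM followed TUBA1B most closely over the 16 libraries were HINT1 (Pearson r = 0.975) and PHF19 (0.973), out of 12232 genes whose mean reached 5 CPM. For TUBB3 they were HABP4 (0.975) and FTH1 (0.961), and for TUBB2B they were PPM1E (0.970) and LATS2 (0.964). The 16 libraries share 4 lines and the treatment, so these values describe likeness of pattern in these libraries.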

How the data were processed

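RNA-seq of 16 libraries was analysed from the table of raw read counts per gene symbol that the authors deposited. The submitters' processing notes name HISAT2, StringTie and GRCh37, without versions or roles, and the assignment of multi-mapped reads is not given in the sources used here. Groups were taken from the sample titles. The members, the pathway lists and the rule for named genes were chosen with earlier results of these data known. That rule named all members, 10 fixed genes (TUBG1, TUBB4A, ATAT1, HDAC6, SIRT2, TTL, TTC5, STMN1, MAPT and MAP1B), up to 4 genes of each pathway list that passed in 1 direction in all 4 lines with a mean of at least 1 CPM (by mean absolute log2 fold change), and the 2 genes most correlated with each of the 3 members of largest change. Genes named from marker lists (UPK1B, KRT8, KRT18, KRT20, RBFOX3, PDGFRA, PDGFRB, COL1A1, CSF1R, CD3E, PTPRC and CD68) were chosen after their values were seen, as was SCAPER as a list description. So were TUBA3C and TUBA3E among the other tubulin genes.

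Counts were tested in edgeR 4.0.16 (R 4.3.3): filterByExpr, TMM factors, 1 mean per group over all 16 libraries (8 residual degrees of freedom), the quasi-likelihood F test, and Benjamini-Hochberg adjustment over 21297 genes within each contrast, with calls at adjusted p under 0.05. The interaction test asked whether the treated minus control difference varied over the 4 lines. Each SE was taken as the size of the change over the root of its F value. The treated against control test and the interaction test were also run on simulated counts with changes set in J82. DESeq2 1.42.0, other scalings and filters, single-line fits, a replicate block, summed paralogs and leaving out each library were alternatives. Isotype shares used CPM per kilobase of the principal GENCODE v29 transcript. Coding sequences are from GENCODE v29 (GRCh38), upstream sequences from RefSeq (GRCh38.p14); all 10 members matched, the coding ends of the alpha members are not reported here, and no coordinate was joined to the GRCh37 counts. Depth was 22506431 to 32537104 counts per library, and 0 of the table's sample columns were left out.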

Additional observations from a re-analysis of the deposited data

Results flagged for a closer look

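The response to CM-1758 differed between the 4 lines for 8 members in edgeR's interaction test. The adjusted p was 1.32e-05 for TUBA1A (up in J82 and RT112, down in TCCSUP), 2.71e-06 for TUBB3 (largest in 253J and RT112) and 4.76e-06 for TUBB2B (largest in RT112 and J82). It was 3.26e-04 for TUBB6 (up in RT112, down in 253J and TCCSUP), 0.00113 for TUBB2A, 0.00403 for TUBB, 0.00812 for TUBB4B and 0.0473 for TUBA1C.

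The same test passed for 15 other named genes. Among tubulin enzymes and the autoregulation factor, the adjusted p was 3.29e-06 for TTL (up in 253J and RT112, down in J82 and TCCSUP), 6.68e-04 for TTLL7, 0.00436 for HDAC6, 0.00588 for SIRT2, 0.00843 for VASH1 and 0.00732 for TTC5. Among microtubule-binding proteins it was 8.15e-08 for MAP1B, 8.75e-06 for MAPT, 1.01e-05 for MAP1A, 3.71e-05 for CAMSAP3 and 2.83e-04 for MAP2. For TUBB4A it was 2.28e-06, for PDCL3 0.00527, for MZT2B 0.0354 and for MZT2A 0.0441. Each line received its own dose, so line and dose cannot be told apart.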

How the results depend on the processing

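The number of members called was 7 in 253J, 7 in TCCSUP, 9 in J82 and 8 in RT112. With near-identical members summed, which leaves 7 rows, it became 5 in RT112 and 4 in TCCSUP, and it was also lower in 253J and J82. The rows called were then both sums, TUBB, TUBB3, TUBB4B and TUBB6 in 253J, and both sums, TUBA4A, TUBB, TUBB3 and TUBB4B in J82. At the study's threshold it was 3 in RT112, 2 in 253J, 1 in J82 and 1 in TCCSUP. Leaving out 1 library at a time gave 6 to 9 calls in 253J, 4 to 7 in TCCSUP, 7 to 9 in J82 and 6 to 8 in RT112, with 7 to 10 members whose responses differed and 10 whose control levels differed. The 4 in TCCSUP came without control replicate 1 and without CM-1758 replicate 1. Reversals touched only values that did not pass in the main test. With total counts alone the log2 fold change was 0.017 for TUBA1A in 253J, 0.10 for TUBA4A in TCCSUP, 0.12 for MAP1B in J82, 0.079 and 0.30 for TUBG1 in RT112 and TCCSUP, and 0.058 for HDAC6 in TCCSUP. RLE factors gave 0.061 for MAP1B in J82 and 0.0095 and 0.038 for TUBG1 in RT112 and TCCSUP, with the same rounded values in DESeq2, and the filter of 10 counts gave 0.059 and 0.15 for TUBG1. Leaving out 1 library gave -0.27 to 0.69 for TUBA4A in 253J, -0.029 to 0.13 for ATAT1 in 253J, -0.53 to 0.017 for ATAT1 in RT112, -0.35 to 0.39 for MAP1B in J82, -0.0092 to 0.33 for TUBB4B in RT112, -0.17 to 0.022 for TUBG1 in RT112 and -0.17 to 0.17 for TUBG1 in TCCSUP. The replicate block gave -0.089 for TUBA4A and -0.049 for ATAT1 in 253J and 0.0025 for TUBG1 in TCCSUP. The cause of these changes was not tested. The replicate numbers are not shown to pair the samples (correlation of deviations 0.053 in 253J, 0.017 in TCCSUP, 0.22 in J82 and 0.043 in RT112). The block changed the number of genes called from 10915 to 8546 in 253J, 11518 to 11965 in TCCSUP, 9044 to 9683 in J82 and 10150 to 10692 in RT112, with 3 residual degrees of freedom. In 253J only replicate 3 had both a control and a treated library, so the block estimate there rests on that replicate. Under the block TUBB6 and TUBG1 passed in J82 (adjusted p = 0.0245 and 0.0339). In 253J the call was gained for MAP1B (log2 fold change 0.50) and lost for SIRT2 (0.67), PDCL3 (-0.60) and VASH1 (0.47). Total counts alone raised the median log2 fold change of all genes by 0.27 in 253J, 0.31 in TCCSUP, 0.15 in J82 and 0.15 in RT112, and moved the share of higher genes among those called from 56.2% to 68.5% in 253J and from 59.1% to 73.9% in TCCSUP. TUBB6 in RT112, at 17 and 36 control counts, had the fewest counts among the members.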
